A study of Mus musculus with 2 samples.

Results

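The replication-dependent histone genes encode the bulk histones that package newly made DNA: the core histones H2A, H2B, H3 and H4, and the linker histone H1. They were taken here as every gene whose symbol begins with Hist1h, Hist2h, Hist3h or Hist4h, which gave 67 of the 32285 genes counted: 6 of H1, 18 of H2A, 18 of H2B, 12 of H3 and 13 of H4. Their UMIs (molecules counted once by a random barcode) were read in single cells of subcutaneous tumors of Lewis lung carcinoma (LLC), a mouse lung cancer line that was grown in C57BL/6 mice and dissociated by enzymes. The study asked how loss of soluble guanylate cyclase (sGC), the nitric oxide receptor, in pericytes changes the tumor. The sGC Ctr library came from Gucy1b1 flox/flox mice without Cre, and the sGC ∆PC library from mice labelled Cspg4-CreER T2::Gucyc1b1 flox/flox, taken as the same floxed gene, with Cre under the Cspg4 promoter, which is active in pericytes but not in them alone. Young mice of both genotypes had received tamoxifen weeks before inoculation, and the cancer cells themselves carried no floxed allele. Each library pooled the tumors of several mice, so there was 1 library for each condition, no test between conditions was possible, and genotype and library cannot be told apart.

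Histone genes of this kind are switched on when a cell enters S phase and switched off as replication ends, so that histone supply follows DNA synthesis. Most of them lie in clusters, many as head-to-head pairs of an H2A and an H2B gene that share a promoter region. Their mRNAs normally end in a short stem-loop and not in a poly(A) tail; the stem-loop binding protein and U7 snRNP guide the cut behind it. The libraries captured RNA by its poly(A) tail and counted the 3′ end, so what was counted are the histone transcripts that carried a tail or an A-rich stretch, and the order of members is an order of captured molecules and not of total histone mRNA. Since 1 molecule gives 1 tag whatever its length, levels are given as CPM, UMIs per 1000000 UMIs of a group of cells, without division by length.

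All 67 members lay in a few stretches of the GENCODE vM21 annotation (GRCm38, the mm10 build the authors aligned to). Chromosome 13 held 23 members at 21715763 to 22043676 and 31 at 23531050 to 23934851. Another 10 were on chromosome 3 at 96219865 to 96270132, 2 on chromosome 11 at 58948920 to 58956830 and 1 on chromosome 6 at 136801553 to 136804415. A 16-base stem-loop was found in an annotated transcript of 42 members. They are printed because the form of this element differed between histone types; capitals mark the loop, bases 7 to 10, between the 2 arms of the stem.
H1 (3 genes), H2A (10), H2B (8) and H3 (5): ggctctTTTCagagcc
H1 (1 gene), H2B (2) and H3 (3): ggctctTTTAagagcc
Hist2h2ac: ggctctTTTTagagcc
H4 (7 genes): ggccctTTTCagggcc
Hist1h4i and Hist2h4: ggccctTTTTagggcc
The 9 H4 genes with a stem-loop had ggccct in the first arm, which none of the other 33 had.

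Promoters of 62 members could be matched by symbol and position to RefSeq (GRCm38.p6), as the 250 bases before and the 50 after the gene's RefSeq start. This start can differ from that of GENCODE. For Hist1h2ap the GENCODE start, 21833507, lies within the 250 bases, and the 50 bases open with the start codon. The letters CCAAT, on either strand, stood in 53 of these 62 (85.5%) against 37.9% of 27025 promoters of all genes: in all 6 of H1, 18 of H2A, 16 of H2B and 10 of H3, but in 3 of 12 of H4. TATAAA, also sought on either strand, stood in 35 of 62 (56.5%) against 14.2% of all. A match on the opposite strand can belong to a head-to-head partner. The only match in the Hist1h2ae promoter lies on the strand of its partner Hist1h2bg. The octamer ATTTGCAT was found in 13 of 62, which were 7 of H2A and 6 of H2B, against 1.75% of all, and the E2F-type letters TTTCGCGC in 9 of 62, 5 of H2A and 4 of H2B, against 0.318%. These motifs do not overlap in their letters, and paired genes share promoter sequence, so the counts are not of independent regions. The 6 promoters printed belong to the members on which the results turn; capitals mark the motifs on either strand. Hist1h2ap, at chr13:21833426-21833725 on the minus strand, and Hist1h1b, at chr13:21780576-21780875 on the minus strand, were the leading members of cycling cells.
Hist1h2ap: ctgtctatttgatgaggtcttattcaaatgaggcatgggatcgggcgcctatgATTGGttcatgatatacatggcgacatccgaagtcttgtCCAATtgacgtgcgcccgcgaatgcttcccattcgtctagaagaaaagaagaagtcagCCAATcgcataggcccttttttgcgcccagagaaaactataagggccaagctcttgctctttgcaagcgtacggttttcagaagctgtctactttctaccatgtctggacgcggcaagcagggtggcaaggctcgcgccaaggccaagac
Hist1h1b: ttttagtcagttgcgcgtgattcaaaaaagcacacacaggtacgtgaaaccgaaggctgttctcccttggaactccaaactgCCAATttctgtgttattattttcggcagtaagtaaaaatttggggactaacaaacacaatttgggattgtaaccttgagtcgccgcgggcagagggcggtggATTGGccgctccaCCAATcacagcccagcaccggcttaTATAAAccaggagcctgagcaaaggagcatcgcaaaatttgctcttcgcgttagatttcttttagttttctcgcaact
Hist1h2ae, at chr13:23571171-23571470 on the minus strand, was an H2A gene of higher level in macrophages than in cancer cells past both cycle thresholds, and Hist2h2ac, at chr3:96220831-96221130 on the minus strand, one of lower level.
Hist1h2ae: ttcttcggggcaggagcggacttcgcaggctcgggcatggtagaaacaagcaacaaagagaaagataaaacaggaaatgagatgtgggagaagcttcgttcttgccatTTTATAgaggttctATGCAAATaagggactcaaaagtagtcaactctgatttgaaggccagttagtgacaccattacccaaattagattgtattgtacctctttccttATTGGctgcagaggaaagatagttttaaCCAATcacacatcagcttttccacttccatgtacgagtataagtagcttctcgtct
Hist2h2ac: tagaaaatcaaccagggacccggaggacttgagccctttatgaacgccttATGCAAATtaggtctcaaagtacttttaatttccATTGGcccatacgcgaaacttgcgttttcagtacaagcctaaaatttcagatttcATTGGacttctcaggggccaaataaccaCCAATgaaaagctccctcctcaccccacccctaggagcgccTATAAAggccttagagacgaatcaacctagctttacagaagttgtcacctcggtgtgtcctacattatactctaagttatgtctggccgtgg
Hist1h4d, at chr13:23581318-23581617 on the plus strand, was the H4 gene of highest level in cancer cells past both thresholds. Hist1h1c, at chr13:23738557-23738856 on the plus strand, was the linker histone gene that was not higher in cancer cells past both thresholds than in those past neither.
Hist1h4d: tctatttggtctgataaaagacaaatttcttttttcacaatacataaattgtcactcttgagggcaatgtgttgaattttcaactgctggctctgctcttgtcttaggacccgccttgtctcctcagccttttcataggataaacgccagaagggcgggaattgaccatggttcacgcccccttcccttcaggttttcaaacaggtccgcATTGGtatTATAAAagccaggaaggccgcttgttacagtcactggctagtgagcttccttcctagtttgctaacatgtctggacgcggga
Hist1h1c: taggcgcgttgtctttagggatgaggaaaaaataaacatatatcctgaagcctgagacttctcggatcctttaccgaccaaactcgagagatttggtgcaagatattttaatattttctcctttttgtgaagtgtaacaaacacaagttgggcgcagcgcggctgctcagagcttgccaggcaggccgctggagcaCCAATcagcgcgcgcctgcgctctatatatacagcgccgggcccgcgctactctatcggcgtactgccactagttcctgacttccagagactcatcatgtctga

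The sGC Ctr and sGC ∆PC libraries held 15007 and 25631 barcodes with 487859656 and 436352742 UMIs, of which 12220 and 22498 cells were kept, and they had 131 barcodes in common. Below, 2 values joined by "and" are those of the sGC Ctr and the sGC ∆PC library in this order, and intervals are exact 95% intervals that cover counting error only. Cells were put in a class by the summed UMIs of fixed marker lists, which gave 6771 and 9935 cancer cells (Krt8, Krt18, Rhox5, Hmga2) and 1790 and 2164 macrophages (Csf1r, C1qa and others), and left 26.6% and 44.2% of the kept cells in no class. Cancer cells were far deeper in the sGC Ctr library, with a median of 51865 UMIs against 17736, as was the whole macrophage class with 11821 against 6868.5. Among macrophages of at least 5000 UMIs, which are split by cycle state below, the order was the reverse in each state. The cancer markers stood at 18.3 and 17.5 UMIs per 10000 in cancer cells against 1.13 and 1.32 in macrophages, and the macrophage markers at 160.8 and 137.8 in macrophages against 0.784 and 1.51 in cancer cells. Gucy1b1, the deleted gene, had 18 UMIs (76.6 CPM, 45.4 to 121) in the 20 pericytes of the sGC Ctr library and 6 (34.9, 12.8 to 76.0) in the 23 of the sGC ∆PC library. These intervals overlap, and tags of the 3′ end do not show whether the floxed part was lost.

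To set cycling cells apart without any histone gene, each cell was thinned to 5000 UMIs, and its UMIs of 38 S-phase genes (such as Mcm5, Pcna and Rrm2) and of 42 G2/M genes (such as Mki67, Top2a and Ccnb1) were counted. A cell with at least 8 UMIs of a list was past its threshold, so that cells fell into 4 states: neither list, S only, both S and G2/M, and G2/M only. Cells past either threshold are called cycling. Cells past neither need not have left the cycle. In cancer cells past neither, the S list still stood at 599 and 687 CPM and the G2/M list at 393 and 527. In cancer cells the summed histone level was 1796 (1790.2 to 1802) and 1563 (1557 to 1568) CPM in cycling cells and 434 (431 to 437) and 479 (476 to 483) in the others. This is 4.14-fold and 3.26-fold higher in cycling cells, or 2.05 (2.04 to 2.06) and 1.70 (1.69 to 1.72) on the log2 scale. With S-phase genes alone as the gate the log2 difference was 1.53 and 1.17, and without Hist1h2ap, the member of most UMIs, 1.68 and 1.47.

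The histone level was highest in cells past both thresholds. As a sum over cells of all depths, cancer cells past the S threshold alone were little above those past neither. Cancer cells past S only stood at 475 (469 to 482) and 542 (535 to 550.1) CPM against the 434 (431 to 437) and 479 (476 to 483) of cells past neither, while cells past both thresholds reached 2754 (2743 to 2766) and 2278 (2267 to 2289) and cells past G2/M only 1482 (1472 to 1492) and 1310.2 (1302 to 1319). In macrophages, too, the cells past both thresholds were highest and those past G2/M only came next, while S only cells were below those past neither in the sGC Ctr library and had an overlapping interval in the other: 419 (409 to 429) and 357 (348 to 368) in cells past neither, 268 (247 to 289.7) and 363 (329 to 398) in S only, 5728 (5633 to 5824) and 5163 (5042 to 5287) in cells past both and 1395 (1341 to 1450.04) and 1550.4 (1467 to 1637) in G2/M only. The place of the S only cancer cells depended on depth and on averaging in the sGC ∆PC library, where they stood at 699 against 535 CPM past neither in cells of 5000 to 15000 UMIs, at 817 against 542 in cells of 15000 to 45000 and at 416 against 437 at 45000 or more, and as a mean over cells at 649.7 against 510.3. In the sGC Ctr library their place also depended on depth, but in the other direction. There they stood at 384 against 466 CPM in cells of 15000 to 45000 UMIs and at 484 against 417 at 45000 or more. As a mean over cells they stood at 429.8 against 439.7 in that library. Cells past both thresholds were 6.35-fold and 4.75-fold above cells past neither among cancer cells, and 13.7-fold and 14.4-fold among macrophages. They held 53.6% and 49.9% of the histone UMIs of cancer cells with 21.2% and 24.2% of their UMIs, and 58.8% and 50.9% of the histone UMIs of macrophages with 10.9% and 7.78% of their UMIs. The state calls rest on few UMIs: 1535 of 6740 and 3375 of 9407 cancer cells lay within 2 UMIs of a threshold.

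**Figure D1:**
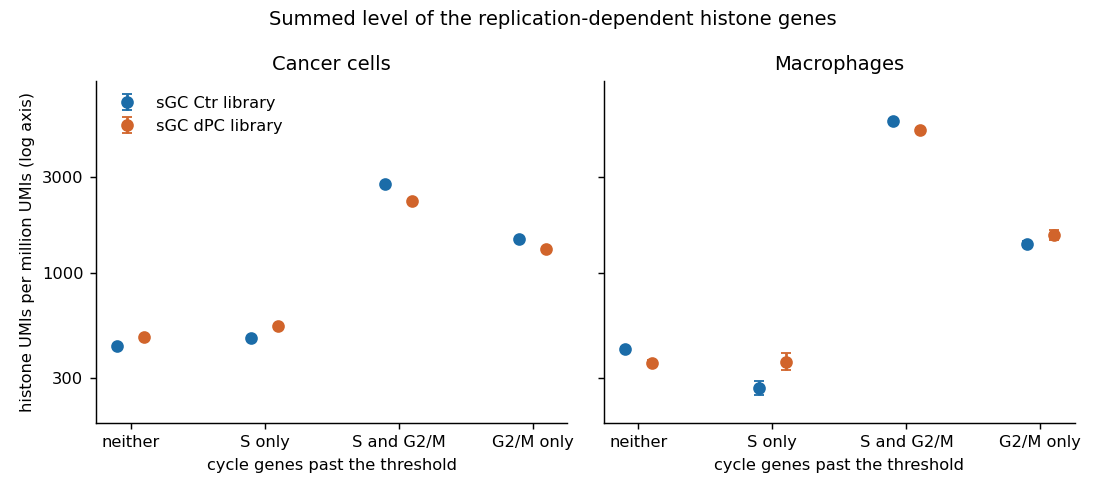
Summed level of the replication-dependent histone genes (vertical log axis, CPM, UMIs per 1000000 UMIs) in cancer cells (left) and macrophages (right) by cycle state, with 1 point per library and exact 95% intervals that cover counting error only. In both classes and libraries the cells past both thresholds are the highest, at 2754.3 and 2278.0 in cancer cells and 5727.8 and 5163.4 in macrophages, and cancer cells past S only, at 475.2 and 542.4, stand far below them.

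Of the 67 members, 59 had at least 50 UMIs in the cancer cells of each library. Of these, 45 were at least 2-fold higher in cycling than in other cancer cells in both libraries, where 3.23% of all 13817 genes tested were, and none was 2-fold lower (0.188% of all genes). The median log2 ratio of the 59 was 2.31 against 0.0010 for all genes. Because a rare member can reach 50 UMIs through its high group alone, the count was taken again over members with 50 UMIs in the other cells by themselves, and 35 of 47 were 2-fold higher, where 3.16% of all genes with such counts were. Between cells past both thresholds and cells past neither, 47 of 59 were higher (4.02% of all genes) and 1, Hist1h2bc, was lower (0.405%). In the S only cells 10 of 51 were higher (1.96%) and none lower (0.13%): Hist1h1b, Hist1h1a, Hist1h2an, Hist1h2ap, Hist1h2af, Hist1h2bm, Hist1h2bj, Hist1h2bh, Hist1h3c and Hist1h3b, but none of 9 H4 genes. In the G2/M only cells 42 of 57 were higher (2.68%) and none lower (0.31%). The 59 members are described by histone type, with levels in cells past neither threshold and past both unless another state is named.

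Among the linker histones, 4 of the 5 H1 genes with enough UMIs were 2-fold higher in cycling cancer cells. Hist1h1b, which encodes H1.5, stood at 8.86 (8.46 to 9.28) and 22.5 (21.7 to 23.4) CPM in cells past neither threshold, 44.4 and 61.6 in S only, 489 (484 to 494) and 407 (402 to 411) in cells past both and 160.2 and 165 in G2/M only. It was 55.2-fold and 18.04-fold higher past both than past neither, or 5.79 (5.72 to 5.86) and 4.17 (4.12 to 4.23) on the log2 scale. Hist1h1a, the H1.1 gene, was rarer but had a like ratio, with 0.391 and 0.959 past neither and 24.4 and 23.2 past both, a log2 difference of 5.96 (5.64 to 6.30) and 4.59 (4.33 to 4.87). Both are among the 6 members that share no 90-base stretch with any other transcript, so no near-identical annotated copy could take or give UMIs. Hist1h1e (H1.4) had 30.3 and 40.9 past neither and 254 and 256 past both, or 8.38-fold and 6.25-fold, although Hist1h2be overlaps it in the annotation. Hist1h1d (H1.3) had 5.12 and 6.66 past neither and 55.2 and 53.5 past both.

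Hist1h1c, the H1.2 gene, did not follow the other linker histones. Its level was 84.4 (83.1 to 85.7) and 76.1 (74.6 to 77.6) in cells past neither threshold, 36.4 (34.7 to 38.2) and 43.4 (41.3 to 45.6) in S only, 75.6 (73.7 to 77.5) and 75.5 (73.5 to 77.5) in cells past both and 72.5 and 74.3 in G2/M only. The log2 difference of the cells past both from those past neither was -0.16 (-0.20 to -0.12) and -0.01 (-0.06 to 0.04), and the S only cells were the lowest in both libraries, at -1.21 (-1.29 to -1.14) and -0.81 (-0.89 to -0.73) from those past neither. Past neither threshold Hist1h1c was the most abundant linker histone, at 84.4 and 76.1 against 30.3 and 40.9 for Hist1h1e, and past both only the third after Hist1h1b and Hist1h1e. The testis H1 gene Hist1h1t stayed under 50 UMIs, at most 0.188 CPM in any state of the cancer cells.

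Histone H2A took the largest share of the UMIs in cycling cells: 21.7% and 24.1% of histone UMIs in cancer cells past neither threshold and 46.2% and 40.9% in cells past both. One gene made up most of it. Hist1h2ap had 30.4 (29.6 to 31.2) and 43.1 (41.96 to 44.2) CPM past neither, 106 and 94.8 in S only, 789 (783 to 796) and 543 (538 to 548) past both and 406 and 282 in G2/M only, so that it held 28.7% and 23.8% of all histone UMIs past both. It was 25.98-fold and 12.6-fold higher past both than past neither, or 4.70 (4.66 to 4.74) and 3.66 (3.62 to 3.70) on the log2 scale. As 92.4% of its 90-base windows are also found in other transcripts, its UMIs may belong in part to near-identical H2A genes such as Hist1h2ao and Hist1h2an, and its identity among these copies is uncertain.

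Next in level came Hist1h2ae, with 14.05 and 20.2 past neither and 269 and 203 past both, 19.1-fold and 10.03-fold higher. Hist2h2ac of the chromosome 3 cluster had 5.13 and 5.73 past neither and 87.1 and 62.4 past both, 16.99-fold and 10.9-fold higher, and shares 12.5% of its windows. Hist1h2ab had 1.08 and 2.46 past neither and 31.8 and 30.4 past both. In all 3, as in Hist1h2ap, the ratio was larger in the sGC Ctr library. Hist1h2an went from 0.5399 and 1.305 past neither to 20.5 and 18.3 past both. Hist1h2ak and Hist1h2af had 8.26 and 7.76 and, for Hist1h2af, 7.94 and 7.48 past both. Hist2h2aa1 stood at 4.25 and 4.11 past neither and 18.6 and 15.8 past both. The other higher H2A genes, Hist1h2ai, Hist1h2ad, Hist1h2ag and Hist2h2ab, stayed under 5 CPM past both, from 4.31 and 3.58 for Hist1h2ai down to 1.45 and 1.05 for Hist1h2ag and 1.31 and 1.54 for Hist2h2ab.

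In all, 12 of 15 H2A genes were 2-fold higher in cycling cancer cells, and Hist3h2a, Hist1h2ac and Hist1h2ao were not. Hist3h2a, which lies beside Hist3h2ba on chromosome 11 and overlaps Trim17, was lower past both thresholds, with 32.2 (31.4 to 32.9) and 29.9 (28.98 to 30.9) past neither and 21.4 (20.4 to 22.4) and 22.3 (21.3 to 23.4) past both, a log2 difference of -0.59 (-0.67 to -0.51) and -0.42 (-0.51 to -0.34) that is under 2-fold. Hist1h2ac had 5.04 and 6.19 past neither and 9.21 and 12.2 past both, just under 2-fold. Hist1h2ao had 0.272 and 0.322 past neither and 0.351 and 0.389 past both, with 92.8% of its windows shared.

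Histone H2B as a sum was nearly level, and most of its UMIs in cells past neither threshold belonged to a single gene that was lower past both. The H2B sum was 152 and 144 CPM past neither threshold and 173 and 171 past both, or 0.19 (0.16 to 0.22) and 0.25 (0.22 to 0.28) on the log2 scale, against 3.76 (3.73 to 3.78) and 3.01 (2.99 to 3.04) for H2A. Hist1h2bc was that gene. It had 133 (131 to 134) and 122 (120.03 to 124) CPM past neither, 67.2 and 74.6 in S only, 57.2 (55.6 to 58.9) and 60.6 (58.9 to 62.4) past both and 122 and 99.1 in G2/M only. It was the most abundant member in cells past neither, with 30.6% and 25.4% of all histone UMIs of those cells, and was lower past both in both libraries, with a log2 difference of -1.22 (-1.26 to -1.17) and -1.01 (-1.06 to -0.96).

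The other H2B genes were low in cells past neither threshold, and 11 of the 16 H2B genes tested, a number that includes Hist1h2bc, were 2-fold higher in cycling cells. Hist2h2bb led them with 0.852 and 1.67 past neither and 18.5 and 19.2 past both. Hist1h2be had 4.998 and 5.26 past neither and 16.97 and 16.3 past both, and its reads may belong to Hist1h1e, which it overlaps. Hist1h2bm had 0.515 and 0.8595 past neither and 14.02 and 12.7 past both. These and the following genes passed a filter on summed UMIs, which a rare gene can pass through its high group alone. The list therefore cannot show how ratios depend on level. Past neither threshold Hist1h2bl had 46 and 45 UMIs, Hist1h2bk 18 and 21 and Hist1h2bm 104 and 112. Between cycling and other cells the log2 ratio of Hist1h2bm was 4.08 and 3.21, against 4.05 and 3.04 for the abundant Hist1h2ap. That of Hist1h2be was only 1.19 and 1.15. Hist1h2bj had 0.421 and 0.744 past neither and 12.3 and 10.6 past both, and Hist1h2bb 0.5597 and 0.8595 past neither and 8.97 and 8.899 past both. Of the next ones, Hist1h2br had 6.998 and 5.84 past both, Hist1h2bh 6.804 and 6.94 and Hist1h2bn 6.73 and 6.21. The lowest were Hist1h2bl with 4.79 and 4.52, Hist1h2bp with 1.62 and 1.53 and Hist1h2bk with 1.14 and 1.101 past both. Besides Hist1h2bc, the members not 2-fold higher in cycling cells were Hist2h2be, Hist3h2ba, Hist1h2bg and Hist1h2bf. Hist2h2be, which has no shared window, had 2.71 and 3.05 past neither and 3.97 and 4.24 past both. Hist3h2ba was highest in G2/M only cells, at 6.96 and 6.103 against 3.22 and 2.801 past neither. Hist1h2bg had 2.16 and 1.86 past neither and 4.71 and 4.82 past both, and Hist1h2bf 1.45 and 1.59 past neither and 3.61 and 3.53 past both.

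Histone H3 was led by Hist1h3c, with 1.08 (0.946 to 1.24) and 2.75 (2.47 to 3.05) CPM past neither threshold and 61.5 (59.8 to 63.2) and 48.7 (47.2 to 50.3) past both, 56.7-fold and 17.7-fold higher. This ratio, 5.83 (5.63 to 6.03) and 4.15 (3.99 to 4.31) on the log2 scale, was near that of Hist1h1b. Hist1h3e had 3.63 and 4.73 past neither and 46.9 and 39.5 past both. Hist1h3f had 1.11 and 1.44 past neither and 18.9 and 14.7 past both, and Hist1h3i 0.713 and 1.16 past neither and 13.995 and 10.9 past both. Hist1h3b was low past neither, with 0.332 and 0.629, and had 12.8 and 11.8 past both, 38.7-fold and 18.7-fold. Hist1h3d differed less, from 4.15 and 4.97 to 11.6 and 15.1. Hist1h3a, Hist2h3b and Hist1h3g completed the 9 of 11 that were 2-fold higher in cycling cells, at 7.05 and 6.42 past both for Hist1h3a, 3.84 and 3.09 for Hist2h3b and 3.37 and 2.58 for Hist1h3g. The 2 that were not are copies on chromosome 3: Hist2h3c2 had 1.481 and 1.65 past neither and 1.95 and 2.13 past both, and Hist2h3c1, all of whose windows are shared, 1.83 and 2.73 past neither and 1.78 and 2.24 past both.

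The H4 genes, which encode the same protein or nearly so, gave the smallest median ratio of the 5 types between cycling and other cancer cells (log2 1.64 and 1.32, against 3.34 and 2.71 for H2A), and 9 of 12 were 2-fold higher. Hist1h4d was the highest past both thresholds, with 13.5 (13.02 to 14.04) and 19.2 (18.5 to 19.99) past neither threshold and 111 (109 to 113) and 106 (104 to 108) past both, 8.19-fold and 5.51-fold. Hist1h4i was the most abundant H4 gene past neither threshold in the sGC Ctr library, at 15.7 and 15.7, and had 59.9 and 46.1 past both. Hist1h4h had 6.404 and 6.68 past neither and 31.6 and 27.6 past both. After these 3 the levels dropped steeply. Hist1h4a and Hist1h4c had 5.3996 and 5.07 and, for Hist1h4c, 5.13 and 4.86 past both, and Hist1h4n, Hist1h4b, Hist1h4j and Hist1h4k lay between 2.42 and 1.89 for Hist1h4n and 0.969 and 1.13 for Hist1h4k. Hist2h4, Hist4h4 and Hist1h4f were not 2-fold higher, Hist2h4 having 2.32 and 3.03 past neither and 3.15 and 3.91 past both and Hist4h4 0.807 and 1.53 past neither and 2.01 and 2.77 past both. Hist1h4f, the rarest tested, had 0.3995 and 0.349 past both. With fewer than 50 UMIs in the cancer cells of a library were Hist2h2aa2, Hist1h3h, Hist1h2bq, Hist1h4m, Hist1h2ah, Hist1h1t, Hist1h2ba and Hist1h2aa, and Hist1h2bq had no UMI in any kept cell.

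**Figure D2:**
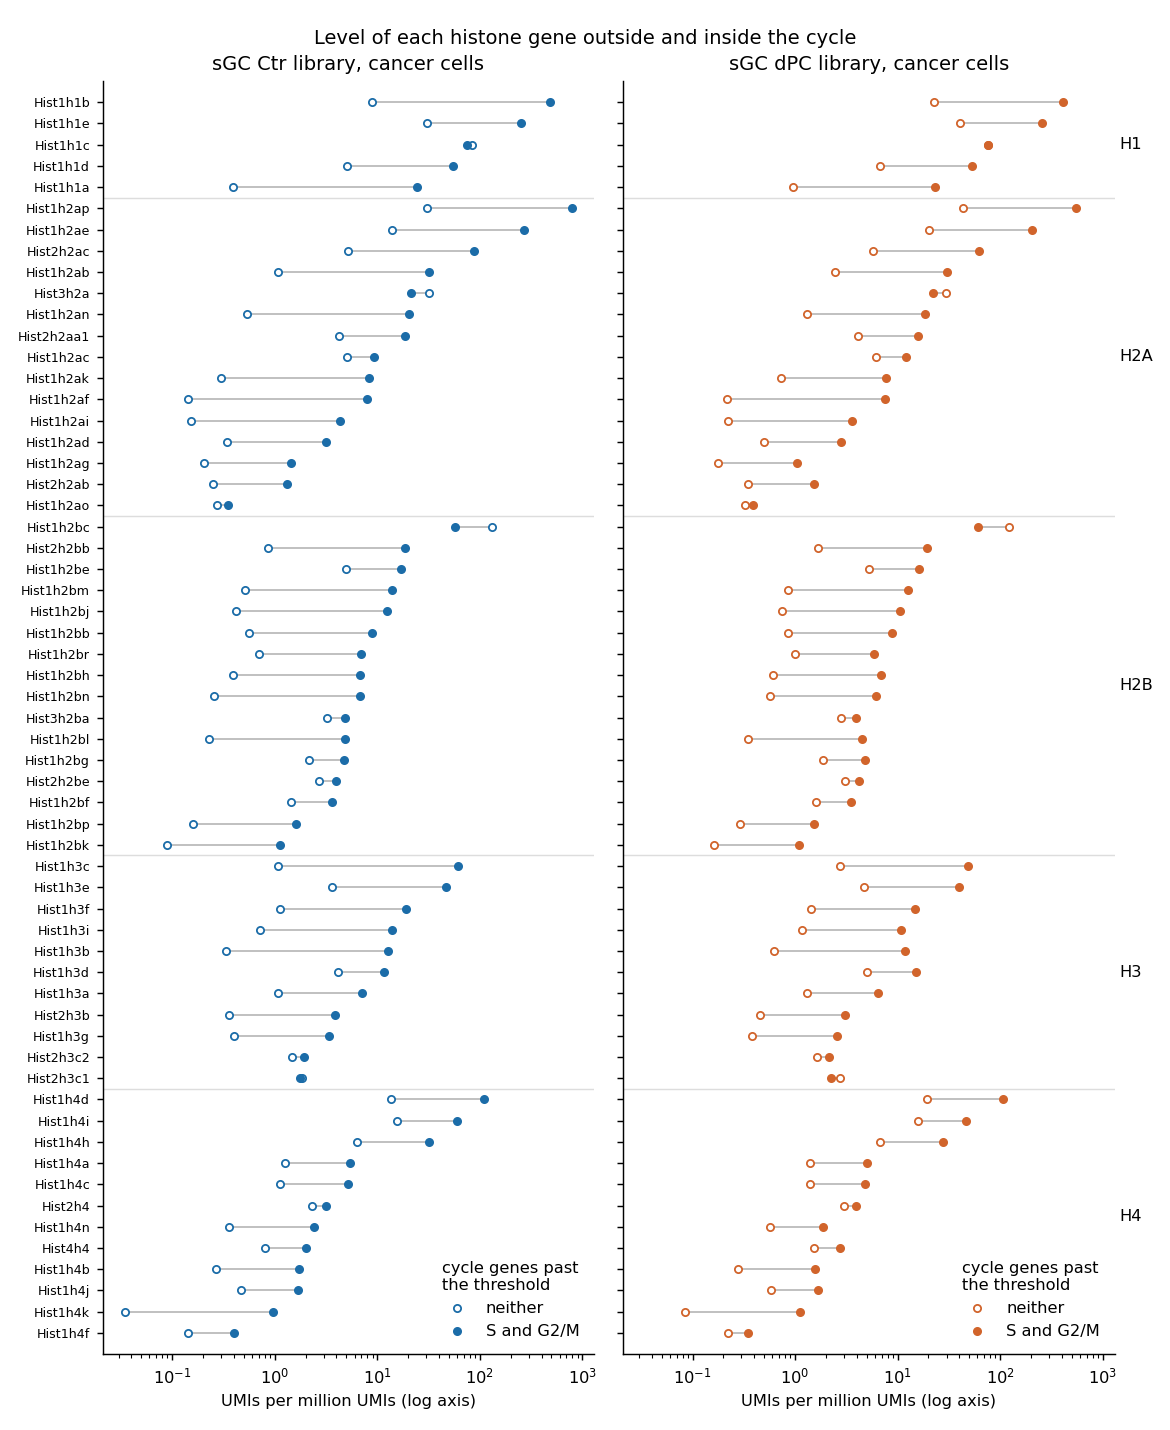
Level of each of the 59 members with at least 50 UMIs (horizontal log axis, CPM) in cancer cells past neither cycle threshold (open) and past both (filled), for the sGC Ctr library (left) and the sGC ∆PC library (right), ordered by histone type. Most lines run far to the right, as for Hist1h1b and Hist1h3c, while Hist1h1c has its 2 points together and Hist1h2bc and Hist3h2a run to the left.

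By state, 51 of the 59 members were highest in cancer cells past both thresholds in both libraries. The highest state was not counted over all genes, so this number has no background share beside it. Hist1h2bc and Hist1h1c were highest past neither, Hist2h3c2, Hist3h2ba, Hist3h2a and Hist1h2ao in G2/M only, and for Hist2h3c1 and Hist1h4f the highest state differed between the libraries. The composition changed with the level: Hist1h2bc, Hist1h1c, Hist3h2a, Hist1h2ap and Hist1h1e were the leading 5 past neither, with 71.5% and 65.1% of histone UMIs, and Hist1h2ap, Hist1h1b, Hist1h2ae, Hist1h1e and Hist1h4d past both, with 69.4% and 66.5%. H2B made up 34.96% and 29.9% of the histone UMIs past neither and 6.29% and 7.51% past both, while the share of H1 was nearly level at 29.8% and 30.7% and, past both, 32.6% and 35.8%.

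Within a state the cells differed widely. In cancer cells past both thresholds the summed level had a median over cells of 2441 and 1807 CPM, with the lowest 10% of cells under 321 and 414 and the highest 10% above 5757 and 4573. The wide range held in macrophages too, with medians of 5885 and 4770, the lowest 10% under 320.5 and 348 and the highest 10% above 11008 and 9771. Counting cells with at least 10 histone UMIs among the 5000 kept, 56.6% (53.6 to 59.5) of 1091 and 46.9% (44.6 to 49.2) of 1824 cancer cells past both were rich in histone UMIs. Of the S only cells 3.40% (2.21 to 4.98) and 6.86% (5.49 to 8.44) were, more than the 1.75% (1.37 to 2.19) and 2.47% (2.03 to 2.97) of cells past neither but far fewer than past both. In macrophages 72.9% (64.5 to 80.3) of 133 and 74.2% (61.5 to 84.5) of 62 cells past both were rich, and in S only macrophages 0 of 146 (exact 95% upper bound 2.49%) and 1 of 70.

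Tumor-associated macrophages are in large part non-dividing cells derived from monocytes, with some that proliferate in the tumor. Of 1699 and 1186 macrophages with at least 5000 UMIs, 386 and 186 were past a cycle threshold. These had a median of 16037 and 18036 UMIs and the others one of 11203 and 12643.5, so here the sGC ∆PC library was the deeper. The summed histone level of the cycling macrophages was 2604 (2565 to 2643) and 2556 (2502 to 2611) CPM against 419 (409 to 429) and 357 (348 to 368) in the others, a log2 difference of 2.64 (2.59 to 2.68) and 2.84 (2.79 to 2.89). Of 31 members with enough UMIs, 27 were 2-fold higher in both libraries (4.69% of all genes) and none lower (1.08%), although Hist2h3c1, with 8 and 6 UMIs in cycling cells, was 2-fold lower in both libraries without the pseudocount of 0.5 that these counts use. Among those with 50 UMIs in the other cells alone 11 of 15 were higher, against 3.2% of all genes with such counts. Past both thresholds 26 of 30 were higher than past neither (5.94%) and none lower (2.13%), and in G2/M only 13 of 17 (3.38%), with Hist2h3c1 lower (1.07%). Of the S only macrophages' 15 members 1, Hist1h1b, was higher (1.88%) and 1, Hist1h2bc, lower (0.916%), or 3, with Hist1h1c and Hist2h3c1, without the pseudocount. The exceptions among the 31 were Hist1h1c, Hist3h2a, Hist1h2bc and Hist2h3c1, all of which were exceptions in cancer cells too. Without cells of over 2 times the median UMI count of their class, the log2 difference of the sGC ∆PC library was 1.92 and 9 of 12 members with enough UMIs were higher. This cap also removed many cycling macrophages of that library, whose median was 18036 UMIs against 6868.5 in the class. With the median taken over the cells compared, the difference was 2.70 and 25 of 28 members were higher.

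Macrophages past both thresholds had a higher histone CPM than cancer cells past both, which did not hold in both libraries for any other state. CPM is a share of the captured UMIs and not an amount per cell. Past both thresholds, cancer cells had a median of 70887 and 24369 UMIs, with 227502 and 169710 histone UMIs in 1091 and 1824 cells. Macrophages had a median of 17553 and 20659, with 13942 and 6852 histone UMIs in 133 and 62 cells. The sums in CPM differed by 1.06 (1.03 to 1.08) and 1.18 (1.15 to 1.22) on the log2 scale, 2.08-fold and 2.27-fold, and each of the 5 types was higher in macrophages. The lowest were H4 with 0.94 (0.85 to 1.03) in the sGC Ctr library and H1 with 0.96 (0.89 to 1.02) in the sGC ∆PC library, and the highest in both was H3 with 1.34 (1.25 to 1.43) and 1.88 (1.77 to 1.99). Of 57 members with at least 50 UMIs in both classes together in each library, 32 were at least 2-fold higher in macrophages in both libraries, where 17.1% of all genes were, and none was 2-fold lower (14.5% of all genes). One of the 32, Hist2h2ab with 6 and 7 UMIs in macrophages, passed in the sGC Ctr library only through the pseudocount, without which 31 were higher and 1, Hist2h3c2 with 2 and 0 UMIs, was lower. In S only cells macrophages were the lower class, with sums of 268 and 363 CPM against 475 and 542, and 2 of 35 members were higher (16.7%) and 7 lower (14.5%), among them Hist1h2ap, Hist1h2ae and Hist1h1b. In G2/M only cells the sums were 1395 and 1550.4 against 1482 and 1310.2, so that the order differed between the libraries, and 8 of 55 were higher (18.3%) and 2 lower (13.2%), or 4 and 3 without the pseudocount. Past neither threshold 3 of 48 were higher and 2 lower, where 19.8% and 19.0% of genes were. Cancer markers stood at 1.01 and 0.987 per 10000 UMIs in macrophages past both and at 1.15 and 1.25 in macrophages past neither. The class gate had set an upper limit on these markers, so their level cannot show whether cancer RNA was mixed in. The summed S and G2/M lists were higher in macrophages past both as well, at 4047 and 3463 (S) and 6327 and 5845 (G2/M) CPM against 2648 and 2383 and, for G2/M, 4165 and 3629 in cancer cells past both. Their part in the histone difference was not tested.

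Hist1h2ap had 1379 (1333 to 1427) and 1004 (951 to 1059) CPM in macrophages past both thresholds and 19.1 and 17.6 past neither. Its difference from cancer cells past both was 0.80 (0.75 to 0.85) and 0.89 (0.81 to 0.97). Hist1h2ae differed more, with 911 (874 to 949.9) and 713 (668 to 759.8) in macrophages against 269 and 203 in cancer cells, or 1.76 (1.70 to 1.83) and 1.81 (1.72 to 1.91). Hist1h2ab, another H2A gene of chromosome 13, had 147 and 136 against 31.8 and 30.4, or 2.21 (2.05 to 2.37) and 2.17 (1.94 to 2.38). The H2A genes thus did not differ as 1 block between the classes. Hist2h2ac went the other way, with 29.6 (23.1 to 37.3) and 32.4 (23.5 to 43.6) in macrophages against 87.1 and 62.4 in cancer cells, -1.56 (-1.91 to -1.22) and -0.95 (-1.41 to -0.51). Hist3h2a was lower too, at 9.86 and 13.6 against 21.4 and 22.3. These members were named after their values were seen.

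Among linker histones, Hist1h1b reached 991 (952 to 1031) and 830.4 (782 to 881) in macrophages past both thresholds from 7.86 and 9.26 past neither, 126-fold and 89.7-fold higher, and was 1.02 (0.96 to 1.08) and 1.03 (0.94 to 1.12) above cancer cells. Hist1h1e had 449.9 and 439 and Hist1h1a 80.1 and 67.1. Hist1h1c, level in cancer cells, was 0.42 (0.24 to 0.61) and 0.68 (0.43 to 0.92) higher on the log2 scale past both than past neither in macrophages, at 120.4 and 124 against 89.7 and 77.3. In both classes its S only cells were lowest, with 29.03 (22.5 to 36.9) and 38.4 (28.1 to 51.3) in macrophages. Of the H3 genes Hist1h3c had 167 and 220.04 past both, 1.44 (1.29 to 1.59) and 2.18 (2.00 to 2.35) above cancer cells, and Hist1h3e 108 and 143. Hist1h4d had 245 and 246 and Hist2h2bb 69.8 and 83.6. Hist1h2bc had 121 (116 to 127) and 77.5 (72.9 to 82.3) past neither, 42.02 (34.1 to 51.3) and 37.6 (27.4 to 50.3) in S only, 53.8 (44.998 to 63.9) and 54.3 (42.5 to 68.3) past both and 131 (115 to 149) and 91.6 (72.1 to 115) in G2/M only. It was thus lower past both and in S only than past neither, while the intervals of G2/M only and past neither overlap.

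**Figure D3:**
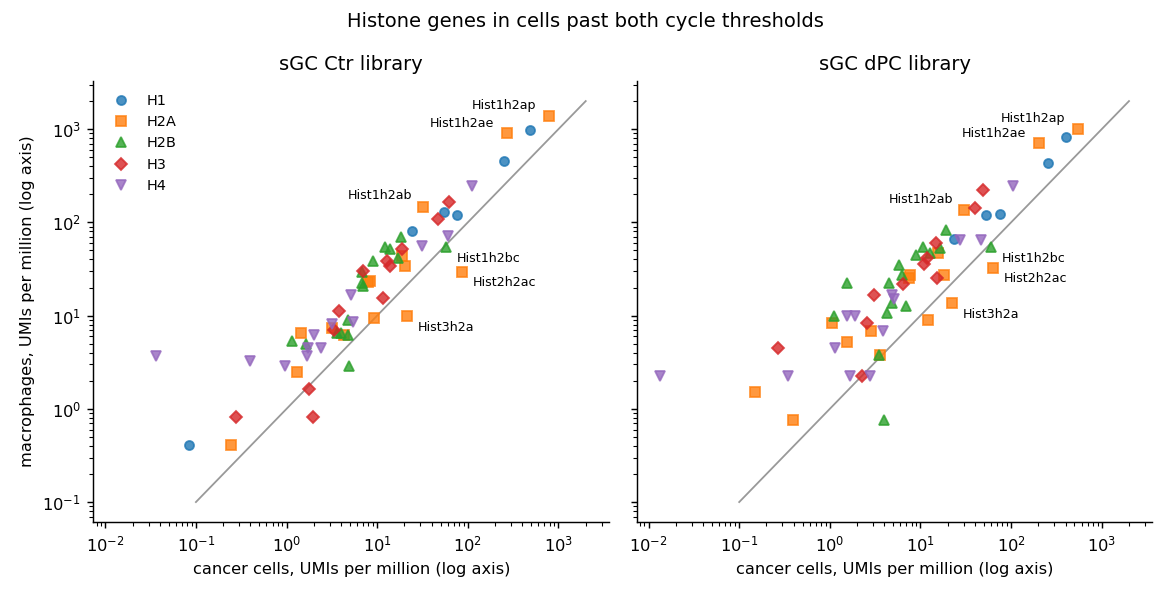
Level of each member in cells past both cycle thresholds, in cancer cells (horizontal log axis) and macrophages (vertical log axis), in CPM, for the sGC Ctr (left) and sGC ∆PC library (right). Colors and shapes give the histone type, the line marks equal levels, and members with no UMI in a group are not drawn. Most members lie above the line, Hist1h2ae and Hist1h2ab far above it, and Hist2h2ac and Hist3h2a below it.

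In 13 head-to-head pairs the starts lay 176 to 660 bases apart, and partners could differ widely in captured UMIs. Hist1h2ap stood 113-fold and 92.99-fold above its partner Hist1h2br in cancer cells past both thresholds, Hist1h2ae 57.0-fold and 42.1-fold above Hist1h2bg, Hist2h2ac 21.9-fold and 14.7-fold above Hist2h2be, and Hist1h2an 12.6-fold and 11.99-fold above Hist1h2bp. In these 4 pairs the H2A gene was the higher. Others were near equal, such as Hist1h2ak and Hist1h2bn, 1.23-fold and 1.248-fold apart. In other pairs the H2B gene was the higher: past both, Hist1h2bj had 12.3 and 10.6 against 1.45 and 1.05 for Hist1h2ag, and Hist1h2bk 1.14 and 1.101 against 0.242 and 0.148 for Hist1h2ah. In the pair of Hist1h2ac and Hist1h2bc the H2B gene was also the higher, with 133 and 122 against 5.04 and 6.19 past neither threshold. The partners were closer past both, where Hist1h2bc had 57.2 and 60.6 and Hist1h2ac 9.21 and 12.2.

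Members also differed by their annotated 3′ end. For 17 members an annotated transcript ran at least 300 bases beyond the stem-loop, and their median log2 ratio between cancer cells past both thresholds and past neither was 1.76 and 1.60. For the 22 tested members that ended within 300 bases of it the median was 3.28 and 2.52, and for the 20 without an annotated stem-loop 4.34 and 3.32. In macrophages the medians of the 3 groups were 2.88 and 3.59 (12 members), 5.83 and 5.67 (12) and 5.11 and 4.84 (7). The members with a long annotated end held 48.0% and 46.3% of the histone UMIs of cancer cells past neither and 25.5% and 29.8% past both. These are descriptions of an annotation, and members of a group share sequence. Some members without an annotated stem-loop had short annotated transcripts, such as 381 bases for Hist1h2bl and Hist1h2bn and 312 for Hist1h4k. A stem-loop beyond the annotated end was not searched, so these genes need not lack one.

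The other classes were few in cells and were not split by cycle state. Fibroblasts had a summed level of 365 (339.8 to 391) and 403 (372 to 436), endothelial cells 443 (408 to 480.2) and 602 (555 to 652), granulocytes 586 (512 to 667) and 617 (545 to 696) and T cells 886 (754 to 1035) and 823 (704 to 956) CPM. In granulocytes, which do not divide once mature, Hist1h2ap stood at 25.7 (12.3 to 47.3) and 32.9 (17.96 to 55.1) and Hist1h1b at 12.8 (4.17 to 29.98) and 11.7 (3.81 to 27.4). Their levels in cancer cells past neither threshold (30.4 and 43.1 and, for Hist1h1b, 8.86 and 22.5) lay within these wide intervals. Whether any of these UMIs are background was not tested. After thinning to 2000 UMIs, 4.90% and 6.14% of granulocytes had a UMI of Hist1h2ap (5.62% and 6.77% unthinned), against 18.7% and 21.1% of cancer cells (68.1% and 56.1% unthinned), whose median depths were 51865 and 17736 UMIs against 2141.5 and 2239. This left out 76 and 78 granulocytes and 10 and 77 cancer cells. Granulocytes carried 7.22 and 9.71 UMIs of the G2/M list per 10000 against 19.1 and 20.4 in all cancer cells. Cancer cells past neither had 3.93 and 5.27, but the threshold had limited this list in them, so granulocytes cannot be ranked against them by it.

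Hist1h2bc and Hist1h1c, which led in cancer cells past neither threshold, also led in granulocytes. Hist3h2a, among the leading 5 of those cancer cells, was not among the leading 5 of granulocytes in either library. Hist1h2bc had 175 (136 to 222) and 117 (87.1 to 155) CPM there and Hist1h1c 103 (73.4 to 139.96) and 138 (105 to 179). Hist1h4i had 74.5 and 63.4 in granulocytes against 16.7 and 15.6 in fibroblasts, and Hist1h2be 35.97 and 28.2 against 1.36 and 4.55. Hist1h2bc ranged between classes, from 33.4 (12.3 to 72.8) and 9.68 (1.17 to 34.96) in T cells to 121 (107 to 136) and 100.04 (84.9 to 117) in fibroblasts and 170.2 (122 to 232) and 116 (71.1 to 179.8) in pericytes. T cells had the reverse makeup, with Hist1h2ap at 117 (72.5 to 179) and 67.7 (37.04 to 114) and Hist1h1b at 117 (72.5 to 179) and 72.6 (40.6 to 119.7).

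**Figure D4:**
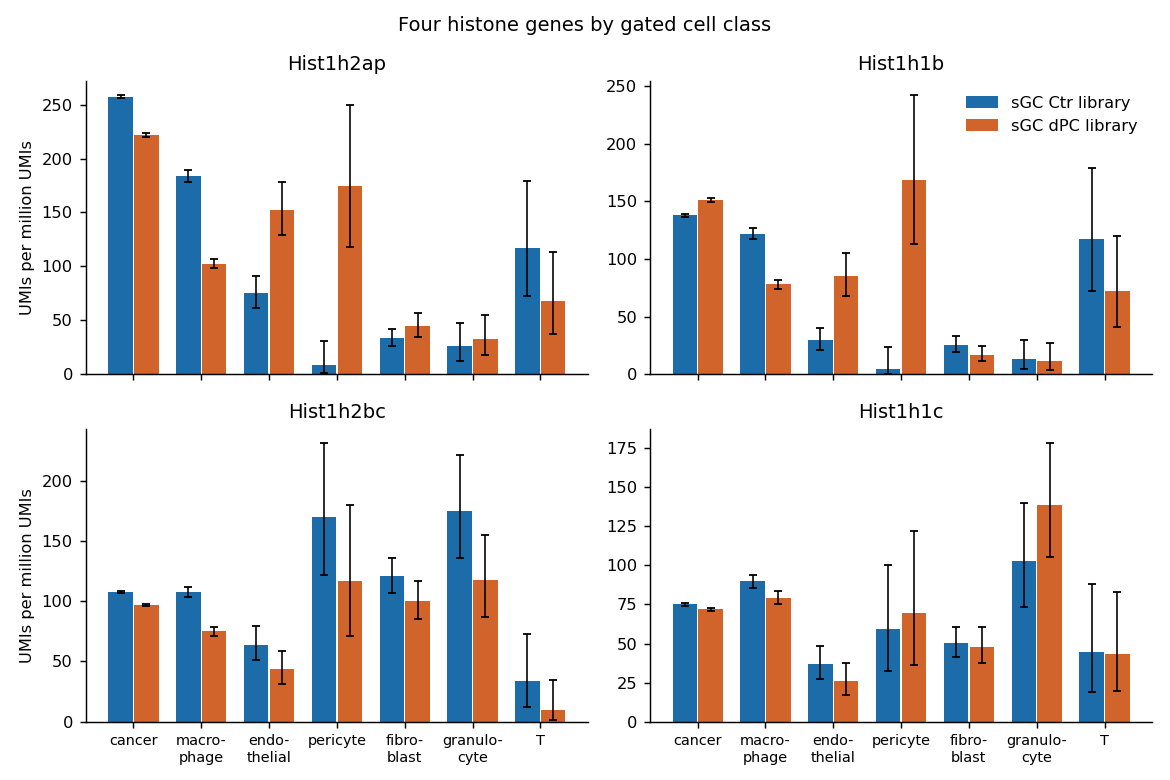
Level of Hist1h2ap, Hist1h1b, Hist1h2bc and Hist1h1c (vertical axes from 0, CPM) in each gated class, all cells of a class together, as bars for the sGC Ctr and sGC ∆PC libraries with exact 95% intervals that cover counting error only. Hist1h2ap and Hist1h1b are high in cancer cells and low in granulocytes and fibroblasts, while Hist1h2bc and Hist1h1c are as high or higher in granulocytes; pericytes of the 2 libraries differ for Hist1h2ap and Hist1h1b, which had 2 and 30 and, for Hist1h1b, 1 and 29 UMIs in them.

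Between the libraries, the histone level summed over all cancer cells differed little, while the levels by state differed in opposite directions. The sum over all cancer cells was 1090.1 (1087 to 1093) and 1105 (1101 to 1108) CPM. It joins unlike mixes of states: of cancer cells with at least 5000 UMIs, 61.2% and 46.5% were past neither threshold. Another 16.2% and 19.4% were past both and 11.8% and 21.4% past G2/M only. In cycling cancer cells the sGC ∆PC library was at -0.20 (-0.21 to -0.19) on the log2 scale relative to the sGC Ctr library, in cells past both thresholds at -0.27 (-0.28 to -0.26) and in cells past neither at 0.14 (0.13 to 0.16). The value for cycling cells moved with the setting, to -0.10 without Hist1h2ap and to -0.43 or -0.44 without cells of over 2 times a median depth. None of 60 members was 2-fold apart in cycling cancer cells, where 3.35% of all genes were higher in the sGC ∆PC library and 0.149% lower. The same held for 0 of 47 in S only (2.21% higher and 0.183% lower), 0 of 59 past both (2.3% and 0.155%) and 0 of 58 in G2/M only (3.06% and 0.127%), and 43 of the 59 members (72.9%) were below 0 in cells past both, as were 55.7% of all genes. Here a member or gene needed 50 UMIs over both libraries. Hist1h2ap had the lowest of these ratios among the abundant members, -0.54 (-0.56 to -0.52), then Hist2h2ac with -0.48 (-0.53 to -0.43) and Hist1h2ae with -0.41 (-0.44 to -0.38), whereas Hist1h1e was at 0.01 (-0.02 to 0.04) and Hist1h1c at 0.00 (-0.05 to 0.05). Depth differs with the library, and within cells of 15000 to 45000 UMIs the sums past both were 2372.6 and 1863.7, and at 45000 or more 2765.8 and 2379.9, so the order past both held in both depth ranges. In G2/M only it did not, with 1103 and 1191 at 15000 to 45000 UMIs and 1520.3 and 1348 at 45000 or more, nor in S only, with 384 and 817 and, at 45000 or more, 484 and 416.

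In cancer cells past neither threshold, 7 of 57 members were at least 2-fold higher in the sGC ∆PC library (2.08% of all genes) and none lower (0.0933%). They were Hist1h1b, with 8.86 (8.46 to 9.28) and 22.5 (21.7 to 23.4) CPM, Hist1h1a, Hist1h2ab, Hist1h2ak, Hist1h2an, Hist1h2bn and Hist1h3c. Their log2 ratios ran from 1.14 (0.61 to 1.68) for Hist1h2bn to 1.35 (1.26 to 1.43) for Hist1h1b, and each was also far higher past both thresholds than past neither, with Hist1h2bn, the smallest of the 7 in the sGC Ctr library, at 4.71 (4.30 to 5.15) and 3.45 (3.10 to 3.83) on the log2 scale. The same 7 lay between -0.34 (-0.40 to -0.27) and -0.07 (-0.17 to 0.02) past both thresholds. The S and G2/M lists of these cells moved too, from 599 to 687 and from 393 to 527 CPM, and their part in the histone difference was not tested. In granulocytes Hist1h1b had 12.8 and 11.7, with intervals so wide that each held the level of these cancer cells in its library. The intervals of the 8.86 and 22.5 CPM in cancer cells did not overlap, and a part of background in these values was not tested. Hist1h2bc at -0.12 (-0.15 to -0.10) and Hist1h1c at -0.15 (-0.18 to -0.11) were slightly lower. By depth, the histone sums past neither were 397 (76 cells) and 535 (1881 cells) CPM at 5000 to 15000 UMIs. They were 466 and 542 at 15000 to 45000 UMIs and 417 and 437 at 45000 or more. The order of the libraries thus held in each depth range, but the sums were closest in the deepest cells. The single members were not read by depth.

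**Figure D5:**
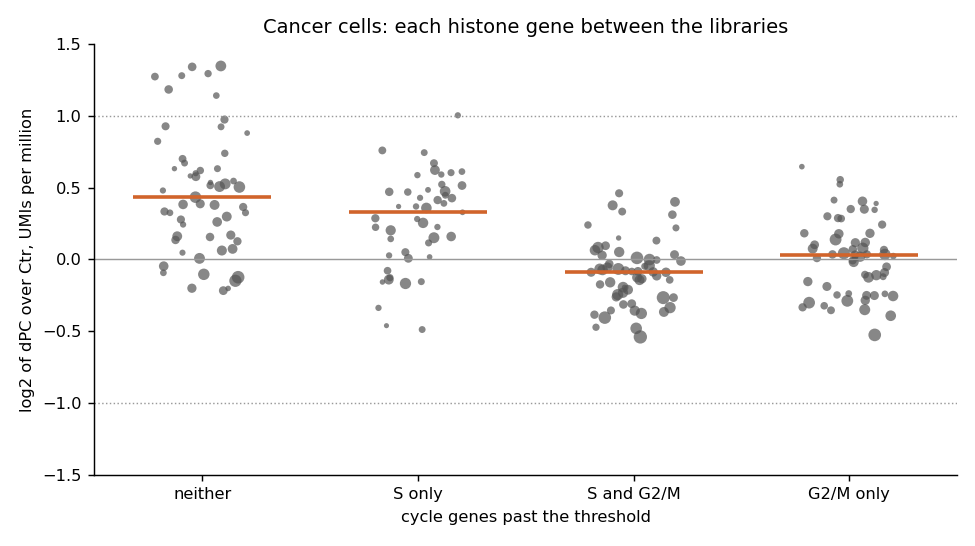
Log2 ratio of the sGC ∆PC to the sGC Ctr library (vertical axis) for each member with at least 50 UMIs in the cancer cells of a state over both libraries, by state (horizontal axis); the area of a point grows with its UMIs, the bars are the medians, and dotted lines mark a 2-fold difference. In cells past neither threshold the points reach above the upper dotted line, with a median of 0.43, and past both they lie around a median of -0.09.

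In cycling macrophages the sums of the libraries differed by -0.03 (-0.06 to 0.01) on the log2 scale, an interval that holds 0. This value depended on the cells and genes used: it was 0.05 without Hist1h2ap, 0.04 with a threshold of 12 UMIs, -0.25 without cells of over 2 times the median depth of the cells compared, and -1.0 when that median was taken over the whole class, which in the sGC ∆PC library held 978 macrophages under 5000 UMIs of 2164. Of 40 members 2 were 2-fold higher in the sGC ∆PC library (0.6% of all genes) and none lower (0.332%), Hist1h2bl with 17 and 37 UMIs and Hist1h2bp with 16 and 35. No member was 2-fold apart by state: 0 of 24 past neither (0.606% higher and 0.211% lower), 0 of 6 in S only (0.382% and 0.618%), 0 of 33 past both (0.668% and 0.348%) and 0 of 13 in G2/M only (0.977% and 0.928%). As a whole class macrophages were at 1055 (1042 to 1069) and 782 (769.7 to 795) CPM, while 22.7% and 15.7% of those with at least 5000 UMIs were past a cycle threshold.

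The summed level of pericytes was 404 (327 to 494) and 1013 (868 to 1175) CPM, from 95 and 174 histone UMIs in 20 and 23 cells. Hist1h2ap had 2 and 30 UMIs in them and Hist1h1b 1 and 29, while Hist1h2bc had 40 and 20. The G2/M list stood at 3.36 and 20.4 UMIs per 10000 and the S list at 4.13 and 7.80 in the same cells, and cancer markers at 0.723 and 1.69. The part of these values in the histone difference was not tested. In endothelial cells, 2 of 7 members were 2-fold higher in the sGC ∆PC library (0.869% of all genes) and none lower (0.603%): Hist1h2ap with 75.2 (61.2 to 91.5) and 152 (129 to 178) and Hist1h1b with 29.3 (20.9 to 40.1) and 85.4 (68.3 to 105), beside 11.9 and 13.96 UMIs of the G2/M list per 10000. In fibroblasts 1 of 9 was (0.891%, and 1.46% lower), Hist1h1e with 23.04 (17.2 to 30.3) and 46.8 (36.6 to 58.9). In granulocytes 0 of 3 members with enough UMIs were (0.752%, and 2.52% lower), in pericytes 0 of 1 (1.93%, and 4.86% lower), and no member had 50 UMIs over both libraries in T cells, where 1.33% of 975 genes were higher and 1.85% lower.

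Genes that act on these mRNAs and proteins were read beside the members. Of 16 genes of histone mRNA processing, 0 were 2-fold higher in both libraries in cancer cells past both thresholds, where 4.02% of all genes were. The median log2 ratio of the 16 was 0.46 against 0.03 for all genes. Slbp, the stem-loop binding protein, had 38.4 and 44.2 CPM past neither, 73.2 and 73.5 in S only, 85.3 and 84.3 past both and 44.3 and 52.1 in G2/M only. Unlike the sum of the members, it was high in S only cells and low in G2/M only. Casp8ap2, a coactivator of histone transcription also known as FLASH, had 24.2 and 25.2, 55.01 and 54.1 in S only and 48.5 and 45.6 past both. In macrophages past both, 4 of 15 were 2-fold higher (5.94% of all genes): Slbp at 138 and 106 from 37.4 and 40.7, Casp8ap2, Cstf2 and Eri1, the exonuclease of histone mRNA ends, at 108 and 118 from 38.8 and 42.2. Cpsf2, a part of the complex that cuts the pre-mRNA, came next after Slbp in level in cancer cells past both, at 63.4 and 55.8, followed by Eri1 at 49.7 and 47.7.

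Histone chaperones carry new histones to DNA. Of 14 such genes, 7 were 2-fold higher past both thresholds than past neither in cancer cells (Asf1b, Chaf1a, Chaf1b, Nasp, Hat1, Anp32e and Mcm2), where 4.02% of all genes were. In macrophages 10 were, against 5.94% of all genes. The medians of the 14 were 1.05 log2 in cancer cells and 1.47 in macrophages. Mcm2 belongs to the S list that set the states. Asf1b had 2.33 and 3.63 CPM past neither and 34.4 and 27.9 past both in cancer cells, and Chaf1b, of the assembly factor CAF-1, 2.68 and 3.899 past neither and 24.3 and 21.4 past both. Nasp, which binds H3 and H4 and H1, had 132 and 139.6 in S only and 163 and 154 past both. In S only cells 6 of 14 chaperones were 2-fold higher in each class, where 1.96% of all genes were in cancer cells and 1.88% in macrophages. The 3 of highest level past both were Ssrp1 at 192 and 179.7, Supt16 at 169 and 180.1 and Nasp.

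Genes listed here as replication-independent histones, whose mRNAs are mostly polyadenylated and not limited to S phase, differed less. Of 11, 4 were 2-fold higher past both thresholds in cancer cells (4.02% of all genes): H2afz, H2afx, H1fx and Cenpa, the centromeric H3, which is in the G2/M list. H2afz had 358 and 411 CPM past neither and 1294 and 1178 past both, and H2afx 44.1 and 50.8 past neither and 195 and 174 past both. The most abundant of them, H3f3b and H3f3a, which encode H3.3, were near level: H3f3b had 1503 and 1481 past neither and 1783 and 1698 past both, and H3f3a 689.8 and 682 past neither and 712 and 736 past both. In macrophages 4 of 9 were higher (5.94% of all genes), H2afv in place of H1fx, with 49.4 and 41.3 past neither and 265 and 215 past both.

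The genes outside the members whose levels most resembled the summed histone level over 26 groups of class, state and library were Kif18a (Spearman rho 0.897), Top2a (0.891), Kif22 (0.887), Pbk (0.886) and Racgap1 (0.882). Top2a, a topoisomerase, is in the G2/M list, and Kif18a and Kif22 are mitotic kinesins. The groups share libraries and depth. Their cycle states were set by the S and G2/M lists, so genes that go with these lists were bound to vary with the groups. The values are a description.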

How the data were processed

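Whole-tumor suspensions were sequenced as 1 droplet library for each condition. The authors deposited UMI counts per gene and cell barcode, made with Cell Ranger 6.1.1 on mm10; by default it leaves out reads that map to several genes, which can lower near-identical histone genes. From these counts, barcodes with at least 10% mitochondrial UMIs or with log UMIs or log genes more than 3 median absolute deviations from the median were removed. Cells were put in a class by marker UMIs per 10000, with an upper limit on markers of other classes; no doublet caller was run, and doublets of 1 class were left in. Cycle states were set after thinning each cell to 5000 UMIs, at 8 UMIs of the S list (38 genes) or of the G2/M list (42 genes), neither of which holds a member. Members and lists were chosen with earlier results of these data known, and the class and cycle thresholds were set after levels had been seen.

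Levels are summed counts per 1000000 UMIs (CPM) with exact Poisson intervals, shares have exact Clopper-Pearson intervals, and ratios have exact conditional intervals (all 95%, with a pseudocount of 0.5 in the ratios of all genes). Cells are not replicates and there was 1 library per condition, so no p-value was computed. A gene counts as higher or lower at a 2-fold ratio with at least 50 UMIs summed over the groups compared, in each library and in both libraries where a comparison was made in each, or over both libraries where the libraries were compared. Without the pseudocount no count of members changed by more than 4. Members with 50 UMIs in cancer cells are named by histone type, the rest by counts; of the other lists, genes past 2-fold and the 3 of highest level; and the 5 genes most similar to the summed level. Depth was 487859656 and 436352742 UMIs; 9951 cells of the sGC ∆PC library and 3245 of the sGC Ctr library had no class, and natural killer and dendritic cells (under 15 per library) are not described. Alternatives covered the cell filter, class gate, thinning, cycle lists, averaging, scaling, the low-count filter and the leading member; other cycle thresholds and 2 caps on UMIs per cell were chosen after seeing the data. Motif and stem-loop searches used exact letters. The ratio intervals, the Poisson intervals and the thinning were tested on simulated counts. The class gates, the cycle states and the counts of members past 2-fold were not. Python 3.11.15, numpy 2.4.6, scipy 1.17.1, pandas 2.3.3 and matplotlib 3.10.9 were used.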

Additional observations from a re-analysis of the deposited data

Results flagged for a closer look

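Hist1h1c had log2 ratios of opposite sign in the 2 classes between cells past both cycle thresholds and cells past neither. They were -0.16 and -0.011 in cancer cells of the sGC Ctr and sGC ∆PC libraries and 0.42 and 0.68 in macrophages. The interval of the -0.011 holds 0. Between cycling and other cells the ratios were -0.38 and -0.15 in cancer cells and -0.06 (-0.20 to 0.08) and 0.23 in macrophages. There the signs differed in the sGC ∆PC library only. The difference between the classes was not tested, since there was 1 library per condition.

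Histone UMIs were also present in barcodes that no comparison used. The barcodes removed by the cell filters had a summed level of 588 CPM in the sGC Ctr library and 778 in the sGC ∆PC library, and the kept cells in no class had 842 and 968. All 4 values lie above the level of cancer cells past neither threshold in the same library and below that of cells past both.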

How the results depend on the processing

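Values are log2 differences in the order: cycling against other cancer cells of the sGC Ctr and the sGC ∆PC library (2.05 and 1.70), the same in macrophages (2.64 and 2.84), and sGC ∆PC against sGC Ctr in cycling cancer cells (-0.20) and in cycling macrophages (-0.03). A setting not named for a value left it within its counting interval, and the cause of a shift was not tested. No ratio between cycling and other cells changed direction under the settings run, nor did that between libraries in cancer cells.

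With a stricter class gate they were 2.06 and 1.78 in cancer cells, 2.74 in macrophages of the sGC Ctr library, and -0.16 and -0.13 between libraries. Thinned to 2000 UMIs they were 2.01 and 1.56, 2.68 in macrophages of the sGC ∆PC library, and -0.22 and -0.20; without thinning 2.12 and 1.75, 2.73, and -0.22 and -0.093. With S-phase genes only they were 1.53 and 1.17, 2.56 and 2.76, and -0.18 and -0.089, and with G2/M genes only 2.33 and 1.88, 3.27 and 3.40, and -0.29. As a mean over cells they were 1.98 and 1.53, 2.54 and 2.70, and -0.23 and -0.12. Without Hist1h2ap they were 1.68 and 1.47, 2.33 and 2.62, and -0.099 and 0.051. Relative to the median gene, macrophages had 2.59 and 2.77 and the libraries -0.19 in cancer cells. Of the settings added later, a threshold of 6 UMIs gave 1.93 and 1.72, 2.43 and 2.51, and -0.17 and -0.14, and one of 12 UMIs 2.12 and 1.60, 2.89 and 3.10, and 0.042 between libraries in macrophages. Without cells of over 2 times the median UMI count of their class they were 2.15 and 1.38, 2.68 and 1.92, and -0.43 and -1.0, and 9 of 12 members were higher in cycling macrophages in place of 27 of 31. With that median taken over the cells compared they were 2.15 and 1.37, 2.71 and 2.70, and -0.44 and -0.25. With a filter of 1 UMI, 51 of 62 members were higher in cycling macrophages; the count in cancer cells (45 of 59) was within 1.5 times under all settings. A cell filter of 200 genes left all 8 results within their limits.

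No paired analysis was possible because each condition had 1 library and no result comes from a test. Depth limits the rarer classes: pericytes, endothelial cells and T cells had 20 to 51 cells per library, and 8 members in cancer cells and 36 in macrophages were under 50 UMIs.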
